A study of Hapsidospora chrysogena with 9 samples.

Results

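Late culture was set against early culture in mycelium of Hapsidospora chrysogena, also named Acremonium chrysogenum. The late libraries, taken at 72 and 96 h, were compared with the 48 h libraries of the same strains. All 9 of the 9 libraries in the series entered, 6 late and 3 at 48 h, and they were chosen by culture time as labelled. The strains were an AcmybA knockout (∆AcmybA), a strain that overexpresses AcmybA (AcmybAOE) and the wild type, all grown in LPE medium. Each strain has 1 library at 72 h, 1 at 96 h and 1 at 48 h. The sources used here do not say whether a mutant is a single clone, which promoter drives the overexpression, or whether the times of a strain came from 1 culture. No strain has a replicate at any time. The p-values therefore measure the spread between these libraries, which may be technical. It can also hold differences between the late times or between strains in their change over time.

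H. chrysogena is a filamentous fungus known as the industrial producer of the antibiotic cephalosporin C. Filamentous fungi commonly make secondary metabolites and asexual spores, called conidia, after the first phase of mycelial growth. Myb proteins bind DNA through helix-turn-helix repeats and act as transcriptional regulators, and the series title describes AcmybA as a repressor of conidiation and cephalosporin production. None of this was measured here beyond transcript levels.

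The deposited table gives 8899 genes and names no unit. Its values were treated as FPKM, a level scaled by transcript length and by library depth. Its genes carry protein identifiers, which the files do not pair with names or functions, so the gene lists set up for cephalosporin synthesis, conidiation and other processes were not counted. For the same reason neither the level of AcmybA nor markers of mycelium and conidia were examined. Summed FPKM ran from 852915 to 1066820 in the late libraries and from 1013290 to 1124540 at 48 h. Depth relative to wild type at 96 h, estimated from whole-read steps of genes under 2 FPKM, was 0.83 and 0.90 in the late knockout libraries against 2.40 at 48 h. It was 2.40 and 2.23 late against 1.77 at 48 h in overexpression, and 0.95 at 72 h against 0.93 at 48 h in wild type. Late libraries were thus shallower than 48 h in the knockout and deeper in overexpression, and depth did not follow culture time across the strains.

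In these bulk samples, fewer cells of a type and less RNA per cell cannot be told apart. Of 8482 genes tested, 1455 passed the test of late against 48 h, which is 17.2%. Levels were higher late for 712 genes (8.39%) and lower late for 743 (8.76%). The test was limma on log2(FPKM + 1) with strain as a block, at a Benjamini-Hochberg adjusted p of at most 0.05, and 2977 genes had an unadjusted p under 0.05. Rescaling the libraries to equal totals gave 702 genes higher and 405 lower, so 63.4% of calls were higher late in place of 48.9%. Which direction holds more genes thus depends on the scaling. The median change over all tested genes was -0.05 on the log2 scale as deposited and 0.07 with equal totals.

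How many genes passed depended on how the libraries entered the fit. The late pair of a strain may not be independent, and averaging it to leave 3 differences, 1 per strain, gave 221 genes, 213 of them among the 1455. Without the strain block there were 410. With 72 h alone as the late time 1 gene passed, which is not among the 1455, and with 96 h alone 174. Leaving out wild type at 72, 96 or 48 h gave 704, 774 and 394 genes. Leaving out overexpression at those times gave 719, 705 and 488, and leaving out the knockout gave 1491, 915 and 1371. Without the whole wild type 44 genes passed and without the overexpression strain 256. Without the knockout strain 1298 passed, 953 of them among the 1455. Whichever single library was left out, 239 genes were called.

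Genes that rose did so by more than falling genes fell. The 712 rising genes had a median log2 change of 1.19, with quartiles of 0.86 and 1.73. The 743 falling genes had a median of -0.84, with quartiles of -1.10 and -0.70. A change of at least 2-fold was reached by 450 rising genes and 230 falling genes, and one of at least 4-fold by 124 and 27. Over all tested genes, called or not, 604 were at least 2-fold higher late and 377 at least 2-fold lower. Equal totals changed these to 727 and 289, and median-of-ratios rescaling to 668 and 336. In the mean over strains, larger rises thus outnumbered larger falls under all 3 scalings. Strain by strain, in the values as deposited, this did not hold throughout. In wild type 12.2% of tested genes were at least 2-fold higher late and 6.25% lower. The shares were 13.2% and 12.7% in overexpression, and 5.39% and 7.85% in the knockout, where falls were more numerous. No called gene changed sign under either rescaling.

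**Figure D1:**
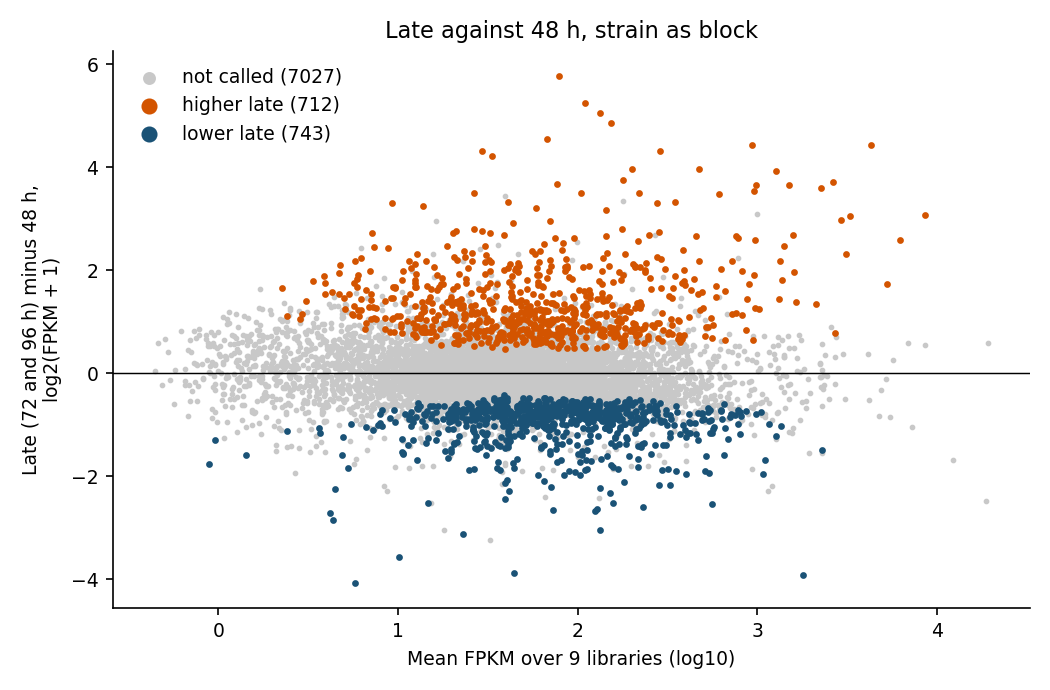
Each point is 1 of the 8482 tested genes, with its mean FPKM over 9 libraries on a log10 axis and its late minus 48 h difference in log2(FPKM + 1). The 712 genes higher late reach a difference of 5.77 and the 743 lower late one of -4.06.

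Calls were found at every level of expression. Among 1128 genes with a mean under 10 FPKM, 5.14% were higher and 2.13% lower late. Among 5296 genes from 10 to 100 FPKM the shares were 7.95% and 7.99%. Among 1933 genes from 100 to 1000 FPKM, 212 were higher and 288 lower late. Of the 125 genes at 1000 FPKM or more, 21 were higher late, with a median log2 change of 2.48, and 8 were lower, with a median of -1.35. The mean that set these classes was taken over all 9 libraries, 6 of them late. A late rise can thus lift a gene into a higher class, so the balance of rises and falls in a class is partly built in. The median standard error of a change was 0.35 under 10 FPKM, 0.20 from 10 to 100, 0.21 from 100 to 1000 and 0.33 above. This error includes differences between strains in the late change as well as measurement error, and the fit does not separate them.

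In the mean over strains, most transcripts changed by less than 2-fold. For 4769 genes, 56.2% of those tested, the 95% interval of the late change lay within 2-fold in either direction. For 1591 genes, 18.8%, it lay within 1.5-fold. A complete switch was not seen in the table, since 0 genes were under 1 FPKM in all 3 libraries at 48 h and at 10 FPKM or more in all 6 late ones, and 0 showed the opposite. With the lower limit raised to 5 FPKM, 2 genes met the rule upward and 0 downward, though a gene just under 5 FPKM is not off.

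KFH43158.1 had the largest log2 rise of the called genes that were above 0 everywhere and moved one way in all 6 late libraries. The late knockout libraries had 252 FPKM at 72 h and 393 at 96 h, against 14.1 at 48 h. Overexpression had 54.4 and 333 FPKM late, against 0.214 at 48 h. Wild type had 31.4 and 113 FPKM late, against 2.84 at 48 h. Every late library of every strain stood above all 3 libraries at 48 h. The late minus 48 h difference was 5.06 on the log2 scale (95% interval 3.42 to 6.70, SE 0.72, adjusted p = 0.00629 in limma). Its size depended on the pseudocount, at 5.85 with 0.1 and 3.96 with 5 in place of 1. The gene stayed called with both. Its call ended with 72 h alone as the late time (adjusted p = 0.0531) and without the wild-type strain (0.0606).

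KFH43806.1 gained the most in percent of summed FPKM. In the knockout it was at 25697 and 32888 FPKM late, against 7683 at 48 h. In overexpression it was at 2752 and 1337 FPKM late, against 181 at 48 h, and in wild type at 3642 and 3439, against 237. Late levels were above 48 h within each strain, but the knockout at 48 h already exceeded the late libraries of the other strains. At 96 h the gene took 3.08% of the knockout library, against 0.758% at 48 h. The late minus 48 h difference was 3.07 (95% interval 2.11 to 4.03, SE 0.42, adjusted p = 0.00591 in limma). The adjusted p was 0.0847 with 72 h alone, 0.0578 with 96 h alone, 0.0519 with late libraries averaged, 0.196 without the strain block and 0.0846 without the wild-type strain.

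KFH42616.1 had both the largest log2 fall by the same criteria and the largest loss in percent of summed FPKM. The late knockout libraries had 509 and 49.2 FPKM, against 5687 at 48 h. In overexpression it was at 592 and 267 FPKM late, against 2714, and in wild type at 334 and 459, against 5511. No late library reached a 48 h level, and the knockout at 96 h was lowest by a wide margin. The late minus 48 h difference was -3.91 (95% interval -5.56 to -2.26, SE 0.72, adjusted p = 0.0142 in limma). The call ended without wild type at 48 h (0.0547), without the wild-type strain (0.105), without the overexpression strain (0.0525), and with 72 or 96 h alone (0.0619 and 0.0558).

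KFH47522.1, named after its values were seen, had the smallest adjusted p among falling genes. The late knockout libraries had 43.3 and 31.4 FPKM, against 358 at 48 h. In overexpression it was at 47.9 and 25.7 FPKM late, against 229, and in wild type at 34.8 and 45.5, against 377. The strains were close to each other at both stages, and the groups did not overlap. The late minus 48 h difference was -3.04 (95% interval -3.58 to -2.51, SE 0.23, adjusted p = 0.00136 in limma). Its call ended only with 72 h alone as the late time (0.0502) among 26 alternatives.

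**Figure D2:**
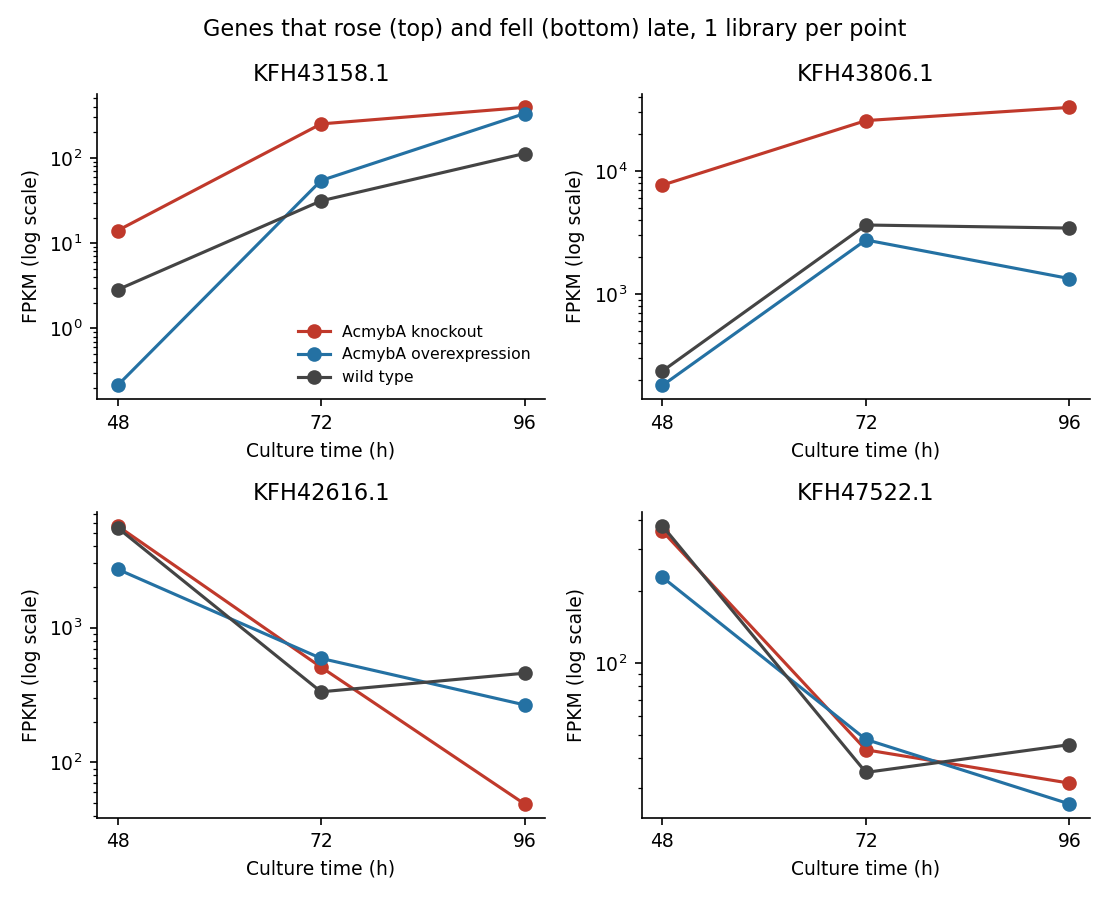
FPKM on a log axis against culture time for the 4 genes, with 1 library per point and a line per strain. KFH43158.1 and KFH43806.1 are above their 48 h level at 72 and 96 h in all 3 strains, and KFH42616.1 and KFH47522.1 are below it.

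All 6 late libraries were above the 48 h library of their strain for 675 of the 712 rising genes, against 14.1% of all tested genes. All 6 were below it for 731 of the 743 falling genes, against 18.5% of all tested genes. A call nearly requires such agreement, so these shares are a description. A difference of at least 2-fold in all 6 late libraries was reached by 121 genes upward and 37 downward, and 121 and 36 of these were called.

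The rising genes came to hold a larger part of the transcript pool. In the knockout they took 20.8% and 28.6% of summed FPKM at 72 and 96 h, against 8.80% at 48 h. In overexpression they took 12.5% and 15.1% late, against 3.61%, and in wild type 14.6% and 14.7%, against 4.59%. The knockout held the highest share at each time. The 10 highest of these genes in each library made up 37.3% and 41.8% of that share in the late knockout libraries, against 31.5% at 48 h. They made up 30.8% and 30.1% late in overexpression, against 24.4%, and 30.1% and 28.0% in wild type, against 22.8%. Without those 10 genes the rest still took 13.0% and 16.7% of the late knockout libraries, against 6.02% at 48 h.

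The falling genes took a smaller part late in all 3 strains. They held 7.92% and 6.29% of summed FPKM in the knockout late, against 14.0% at 48 h. In overexpression they took 8.72% and 7.39%, against 14.9%, and in wild type 7.37% and 7.61%, against 14.3%. Rising genes at 1000 FPKM or more numbered 36 and 49 in the knockout late, against 16 at 48 h. In overexpression they numbered 16 and 19, against 4, and in wild type 25 and 23, against 4. Falling genes at that level numbered 3 and 0 in the knockout late, against 14, then 4 and 2 in overexpression, against 29, and 4 and 4 in wild type, against 21. The genes were chosen on these libraries, so these shares give size and are not tested.

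**Figure D3:**
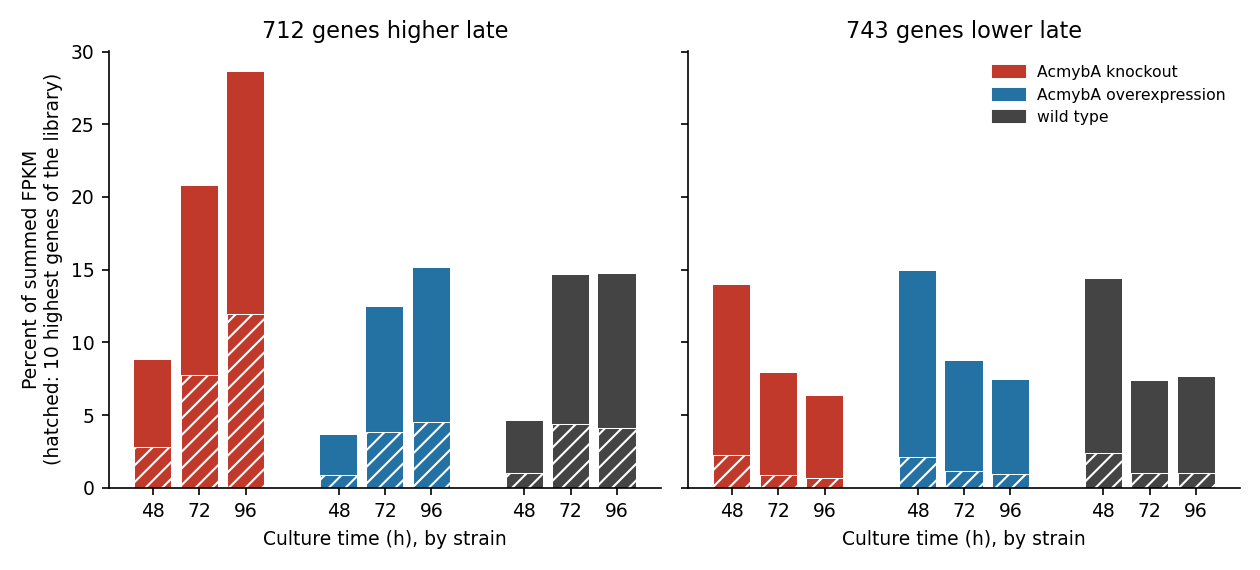
Bars give the percent of summed FPKM taken by the 712 rising genes (left) and 743 falling genes (right) in each library, and the hatched part is that of the 10 highest of them in that library. The rising genes reach 28.6% in the knockout at 96 h, and the falling genes lie between 6.29% and 8.72% in all late libraries.

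Genes called in a pair of strains were next looked up in the strain left out, which shares no library with the call. Without overexpression 3.02% of tested genes were called, 154 higher and 102 lower late. In overexpression 94.2% of the 154 were also higher late, against 48.0% of all tested genes, and 74.7% were at least 2-fold higher, against 13.2%. Of the 102 lower genes, 84.3% were also lower late in overexpression, against 52.0% of all tested genes.

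Without the knockout 15.3% were called, 772 higher and 526 lower late. In the knockout 80.4% of the 772 were also higher late, against 41.3% of all tested genes, and 30.4% were at least 2-fold higher, against 5.39%. Of the 526 lower genes, 91.6% were also lower late, against 58.6%. The median change of the 772 genes was 0.56 in the knockout and 1.45 in the strains that chose them. For the 526 it was -0.56 and -1.01.

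Without wild type only 0.519% were called, 26 higher and 18 lower late. In wild type 24 of the 26 were higher late, against 50.3% of all tested genes, and these 24 were at least 2-fold higher, against 12.2%. The median change of the 26 was 2.33 in wild type and 2.80 in the strains that chose them. Of the 18 lower genes 12 (66.7%) were also lower in wild type, against 49.3% of all tested genes, and 10 (55.6%) were lower in both its late libraries, against 39.6%. Their median change was -0.54 in wild type and -2.43 in the strains that chose them.

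**Figure D4:**
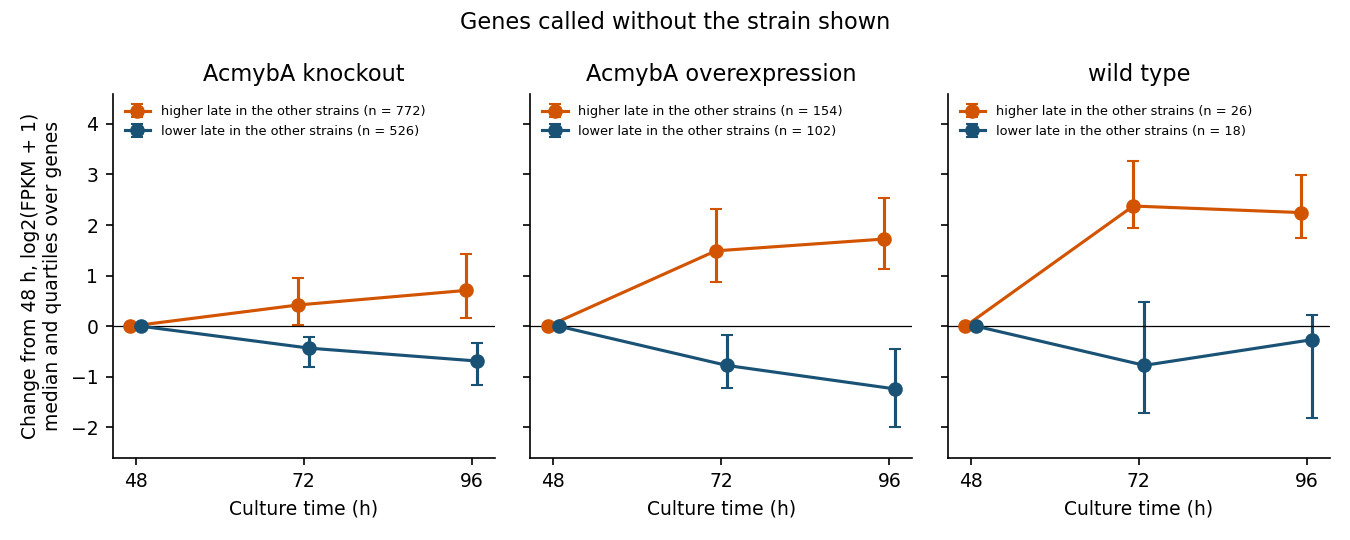
Change from 48 h in log2(FPKM + 1) in the strain shown, for genes called higher or lower late in a fit without that strain, with points at the median over genes and bars at the quartiles. The genes called higher elsewhere reach a median of 0.71 in the knockout, 1.72 in overexpression and 2.25 in wild type at 96 h.

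Over all tested genes the late minus 48 h differences of the strains, which share no library, were alike in part. Across genes they correlated at r = 0.411 between knockout and wild type, 0.487 between overexpression and wild type and 0.349 between overexpression and knockout. The 3 values describe 8482 genes, which are not independent replicates. The same sign was seen for 65.9%, 69.6% and 63.6% of genes. Genes listed at 0 in a library and at 10 FPKM or more in another lowered r. Without them it was 0.516, 0.539 and 0.429, in the same order of pairs. Over all tested genes the SD of the late minus 48 h differences was 0.794 in the knockout, 1.02 in overexpression and 0.948 in wild type. At least a 2-fold rise in both late libraries was seen for 271 genes in the knockout, 884 in overexpression and 774 in wild type, and such a fall for 368, 683 and 351. With 1 library per strain and time these counts have no test between strains.

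**Figure D5:**
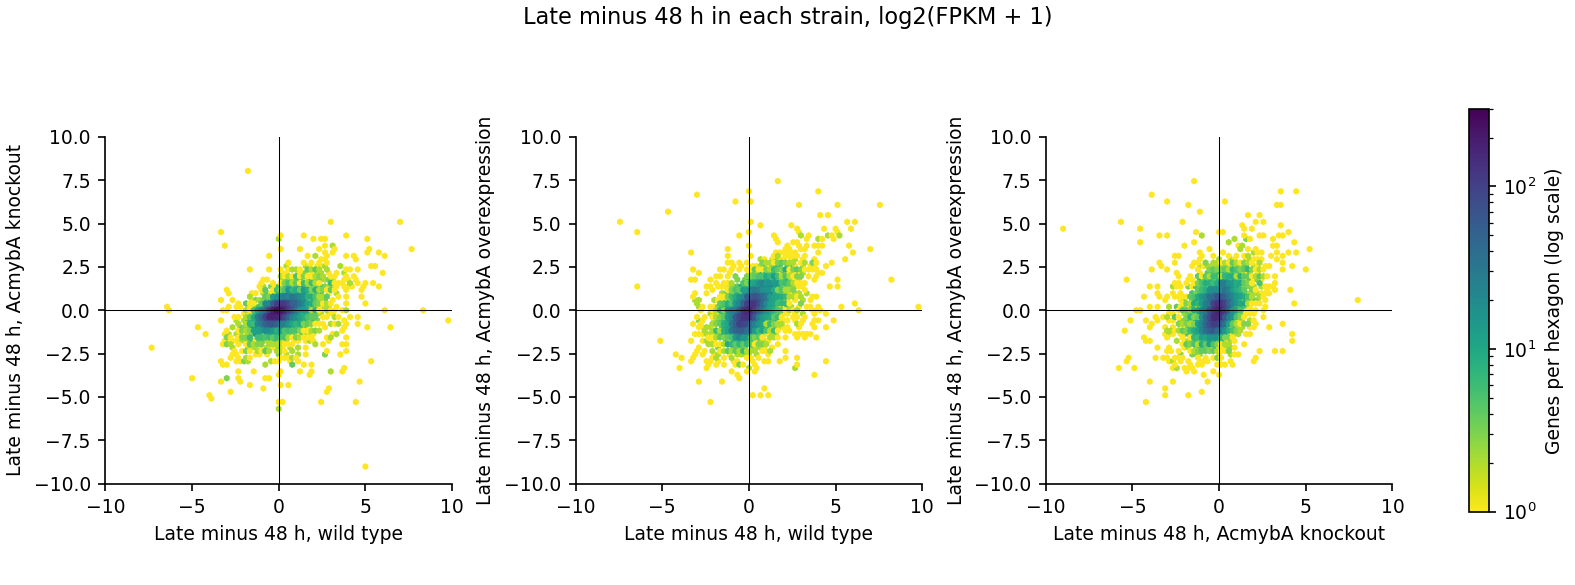
Late minus 48 h difference in log2(FPKM + 1) of each tested gene in 1 strain against another, with colour giving the number of genes per hexagon on a log scale. The clouds follow the diagonal loosely, at r = 0.411, 0.487 and 0.349 from left to right.

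Whether the late change of a gene differed between strains was tested directly, with an F test of the strain by stage terms. Its p-values, and the SEs of a strain's shift, rest on the spread between the 72 and 96 h libraries of a strain. Each strain has 1 library at 48 h, so the spread at 48 h is not measured. The test found 11 genes, 0.13% of those tested, while 1250 had an unadjusted p under 0.05. Of the 11, 9 are genes listed at 0 in at least 1 library and at 10 FPKM or more in another. Left with genes above 0 in all libraries, the test found 1. The count was 46 without the knockout at 72 h, 4 without wild type at 96 h, and 0 without wild type at 72 h or without overexpression at 72 or 96 h.

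The 2 genes above 0 in every library were KFH48426.1 and KFH48157.1. KFH48426.1 had 101 and 110 FPKM in late knockout libraries, against 290 at 48 h. It was at 225 and 147 in overexpression late, against 342, and at 259 and 269 in wild type, against 17.0. Levels were higher late in wild type and lower late in both mutants, with shifts of -1.45 in the knockout, -0.91 in overexpression and 3.88 in wild type (SE 0.29 each, F test adjusted p = 0.0325 in limma). The wild-type shift rests on the 1 library at 48 h, whose own spread this SE does not measure. The adjusted p was 0.0751 without the overexpression strain, 0.608 without the wild-type strain, 0.152 without the 72 h and 0.150 without the 96 h library of wild type, and 0.129 and 0.0771 without those of overexpression.

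KFH48157.1 had 488 and 659 FPKM in late knockout libraries, against 213 at 48 h. It was at 122 and 97.4 in overexpression late, against 3.16, and at 114 and 102 in wild type, against 0.981. All strains were higher late, and the knockout stood highest at every time and had the smallest shift, at 1.41 against 4.73 in overexpression and 5.78 in wild type (SE 0.28 each, F test adjusted p = 0.0489 in limma). The call was lost in 12 of 18 alternatives, at adjusted p from 0.0503 to 0.267, among them those without wild type at 72 h (0.188) or 96 h (0.170) and without overexpression at 72 h (0.234) or 96 h (0.223).

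Few genes were called between the late times. With 1 library per strain at each time, a low count does not show that the times were alike. The contrast of 72 h alone with 48 h, with as many libraries on each side, also called 1 gene, but that of 96 h alone called 174. Those fits left out the remaining late time, so they rest on fewer libraries than the fit of 96 h against 72 h. They had 1686 genes (72 h) and 2060 genes (96 h) at an unadjusted p under 0.05. The contrast of 96 h with 72 h found 1 gene, 0.0118% of those tested, and 281 had an unadjusted p under 0.05. That gene, KFH41605.1, named because it was the only one, was at 48.3, 21.1 and 47.0 FPKM at 96 h in knockout, overexpression and wild type and listed at 0 in all 3 strains at 72 h. At 48 h it was at 43.5, 83.7 and 48.7 FPKM. It was the only gene of its kind listed at 0 in all strains at a single time. Its call was lost when any single wild-type or knockout library was left out, when overexpression at 72 h was left out, and without the wild-type or the knockout strain. Without the knockout at 72 h, or without the knockout strain, 1 gene was called and it was a different one.

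Of the squared deviations of log2(FPKM + 1) over genes and libraries, culture stage took 25.4% with 1 degree of freedom, and 96 h against 72 h for 5.66% with 1. Strain took 42.2% with 2, stage by strain 16.7% with 2, and 96 h against 72 h by strain 10.1% with 2. These shares also hold residual spread. Of the 100 most abundant genes, 75 were shared between 96 and 72 h in the knockout, and 58 and 69 between 96 or 72 h and 48 h. In overexpression the numbers were 82, then 55 and 62, and in wild type 86, then 61 and 63.

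Within the late stage the called genes were described by the order of their 96 and 72 h levels, with no test. Of the 712 rising genes, 71.8% were higher at 96 h than at 72 h in the knockout and 76.0% in overexpression, against 44.8% in wild type. Over all tested genes the shares were 49.4%, 44.3% and 47.5%. Of the 743 falling genes, 24.6% were higher at 96 h in the knockout and 14.9% in overexpression, against 49.5% in wild type. Set against 48 h, the median rise in the knockout was 0.73 at the earlier late time and 0.99 at the later one. It was 1.24 and 1.49 in overexpression, and 1.34 and 1.26 in wild type. The median fall was -0.58 and -0.81 in the knockout, -0.88 and -1.13 in overexpression, and -0.83 and -0.80 in wild type. The difference between strains in this timing rests on 1 library per strain and time and was not tested.

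No change common to the strains was detected in how concentrated the transcript pool was. The 100 most abundant genes of a library took 33.0% and 35.5% of summed FPKM in the knockout late, against 28.7% at 48 h. In overexpression they took 27.8% and 27.2% late, against 31.4%, and in wild type 32.2% and 29.8%, against 33.5%. The share was above 48 h in both late knockout libraries and below it in both late libraries of the other strains. Averaged over strains the late minus 48 h difference was -0.247 percentage points (exact permutation test within strains over 27 arrangements, two-sided, p = 0.926). The smallest p this test allows is 0.0370.

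Some zeros in the table stood beside high values. Of the tested genes, 194 were listed at 0 in at least 1 library and at 10 FPKM or more in another, 2.29% of those tested, and 24 of the 1455 late calls were among them. They were listed at 0 for 92 and 66 genes in the knockout late, against 26 at 48 h, for 21 and 25 in overexpression, against 55, and for 61 and 55 in wild type, against 98. The 3 libraries with the fewest were the 3 of greatest estimated depth. Among values of 10 FPKM or more, 8.08% to 36.3% of those of these genes in a library were shared with another gene to every digit, against 0.957% to 1.9955% over all genes. In the strain by stage test KFH43013.1 and KFH44138.1, named for this after their values were seen, both had 84.3391 FPKM in wild type at 48 h, so these 2 of the 9 calls rest in part on 1 shared value. The part of depth and of shared values in these zeros was not tested.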

How the data were processed

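PolyA RNA of frozen mycelium was extracted with Trizol and sequenced on Illumina libraries, per the labels' protocols. The submitters' processing notes name CASAVA and HISAT2 2.0.5 without their roles. For build, annotation and counter, each was not given in the sources used here. Values as deposited by the authors are treated as FPKM. The file header names no unit, and this one is inferred from decimals and column sums that differ between libraries. All 9 columns matched a library by title, with 0 unmatched.

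Genes were tested where 3 or more libraries reached 1 FPKM; 124 genes were at 0 everywhere. The scale log2(FPKM + 1), computed from the deposited values, understates changes of low genes. Strain plus stage (late or 48 h) was fitted across genes with limma 3.58.1 (R 4.3.3) and an intensity trend, with 5 residual and 3.34 prior degrees of freedom. The strain by stage F test leaves 3 residual degrees, and 96 h against 72 h, with time at 3 levels, leaves 4. Tests are two-sided and Benjamini-Hochberg adjusted over all 8482 genes. Fits and the depth estimate were checked on simulated data. For the fits the simulated errors were independent between libraries, so dependence within the late pair of a strain was not covered. Python 3.11.15 gave the descriptive values. Alternatives were pseudocounts, filters, scalings, designs, and leaving out strains, times or single libraries.

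Named genes were, among calls above 0 everywhere that moved one way in all 6 late libraries, those with the largest log2 change and the largest change in percent of summed FPKM in each direction. For the strain difference they were those above 0 everywhere with the smallest adjusted p. KFH47522.1, KFH41605.1, KFH43013.1 and KFH44138.1 were added after their values were seen. The comparison, lists and rules were chosen with earlier results of these data known.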

Additional observations from a re-analysis of the deposited data

Results flagged for a closer look

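KFH42616.1 at 96 h in the knockout, at 49.2 FPKM, stood far below the other 5 late libraries, which ran from 267 to 592 FPKM. The gap to the nearest, divided by the range on the log2(FPKM + 1) scale, was 0.679, above Dixon's critical value of 0.625 for 6 libraries. That value flags about 1 in 20 groups by chance where a group holds replicates, and 9 groups were looked at. These 6 libraries differ in strain and time, and the gene was chosen for its fall in them, so that rate does not apply here.

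The late change differed between strains for 11 genes by the F test, among them KFH48426.1 (adjusted p = 0.0325 in limma) and KFH48157.1 (0.0489), the only ones above 0 in all libraries. The other 9 have values listed at 0 beside values of 10 FPKM or more.

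The share of summed FPKM in the 100 most abundant genes changed by 5.59 percentage points late against 48 h in the knockout, by -3.84 in overexpression and by -2.49 in wild type. Both late libraries of each strain lay on the side given, and the difference between strains was not tested.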

How the results depend on the processing

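The 1455 genes called late against 48 h became 1 with 72 h alone, 174 with 96 h alone, 221 with late libraries averaged, 410 without the strain block, 44 without wild type, 256 without overexpression and 394 to 1491 without 1 library. In the other alternatives, among them pseudocounts, filters, scalings and time with 3 levels, they numbered 1107 to 1561. The 11 genes whose late change differed between strains became 3 with a pseudocount of 5, 1 without genes listed at 0, 7 after median-of-ratios rescaling, 0 without wild type (1201 at an unadjusted p under 0.05), 0 without overexpression (634), and 0 to 46 without 1 library. Where leaving out 1 library gave 0, 727 to 997 had an unadjusted p under 0.05. The strain by stage test could not be fitted without a 48 h library. The 1 gene called between 96 and 72 h became 0 with a pseudocount of 5 (276 unadjusted), without genes listed at 0 (277) or without wild type (246), and 0 to 1 without 1 library (185 to 331 where 0). The mean change in the share of the 100 most abundant genes, -0.247 percentage points, was 0.874 without wild type, 1.55 without overexpression and -3.16 to 1.55 without 1 library. The 4 genes named for late against 48 h kept their sign in all 26 alternatives. The cause of these changes was not tested. Fewer libraries also leave fewer degrees of freedom. The labels give no replicate numbers, and the pairing of libraries is by strain. Depth limits genes listed at 0 and genes of low level most.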
